A study of Mus musculus with 2 samples.

Results

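Kinesins, tubulins, structural microtubule-associated proteins (MAPs) and stathmins were followed as 1 set of genes in RNA from the corpus, the part of the stomach that secretes acid. Members were the genes whose symbols begin with Kif and a digit, Tuba, Tubb or Tubg, together with Map1a, Map1b, Map2, Map4, Map6, Mapt, Dcx, Dclk2 and Stmn1 to Stmn4. In all, 77 gene identifiers matched. The pseudogenes Kif22-ps and Kif4-ps and the antisense gene Kif16bos were left out, so 74 members remained of the 37681 gene identifiers counted. They comprised 38 kinesin genes, the kinesin-binding protein gene Kif1bp, 23 tubulin and gamma-tubulin complex genes, 8 MAP genes and 4 stathmin genes. The RNA came from corpus epithelium of C57BL/6 mice that all carried an Hdc-CFP transgene, in which a cyan fluorescent protein reports the gene for histidine decarboxylase, the histamine-making enzyme. The study sought the origin of the histamine-making cells, and compared 1 library of sorted Hdc-CFP-positive cells with 1 library of corpus epithelial cells depleted of them. How many mice went into either library is not given in the sources used here. Each group held 1 library, so the differences have no replicate check, carry no p-value and describe these libraries.

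Microtubules are hollow polymers of alpha- and beta-tubulin, started by gamma-tubulin and its ring complex, and kinesins are the motors that walk along them or take them apart. In dividing cells one group of kinesins builds the spindle, aligns the chromosomes and pinches the daughter cells apart, while in neurons and endocrine cells another group carries vesicles and organelles out along the microtubules. Structural MAPs stabilise and bundle the tracks, stathmins bind free tubulin, and the corpus cells that release histamine, called ECL (enterochromaffin-like) cells, are endocrine cells that store it in vesicles.

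Reads counted in genes came to 10736538 in the Hdc-CFP-positive and 50928524 in the depleted library. Levels are normalised CPM, in which counts are set relative to each library's total after a trimmed-mean factor. A fold is the positive over the depleted level, with its exact 95% interval for counting error in brackets, and log2 folds have 0.5 added to the counts. A gene was measured when either library had at least 10 counts, and was called when its levels differed at least 2-fold and the interval did not reach 1. Hdc stood at 8750.2 CPM in the positive and 21.2 CPM in the depleted library, in the direction of the labels, and all 7 markers of ECL and endocrine cells were higher. Of 9 proliferation markers 8 were lower, with a sum of 105 CPM in the positive and 655 CPM in the depleted library. All 5 measured markers of pancreatic acinar cells were higher as well, with sums of 9141 CPM in the positive and 39.5 CPM in the depleted library, while Cpa1 had 0 counts in both libraries. Of 5 markers of mast cells, which also make histamine, 4 were higher (Cma1, Mcpt4, Cpa3 and Fcer1a), with a summed level of 137 CPM in the positive and 40.4 CPM in the depleted library. All 7 macrophage markers were lower, summing to 10.5 CPM in the positive and 2507 CPM in the depleted library. Markers of surface mucous cells (4 of 4) and parietal cells (4 of 4) were lower as well, and of 4 chief-cell markers 2 were lower and 2 neither. The part of these cell types in the differences below was not tested.

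Promoter windows of the mitotic and the vesicle-transport kinesins were searched for a pair of short words. The word CHR (TTTGAA or TTCGAA) is a known element of genes expressed in the G2 and M phases, and CCAAT is the word bound by the factor NF-Y, both searched on both strands. The windows, from RefSeq on GRCm38.p6, run from 250 bases before a gene's start to 50 bases after it. They are shown for the 3 mitotic kinesins with the largest differences between the libraries, Kif14, Kif18b and Kif4, and for Kif1a and Kif5c, the vesicle motors with the most counts among those called higher. The window of Kif14 lies at chr1:136467598-136467897 (plus strand), that of Kif18b at chr11:102925075-102925374 (minus strand), that of Kif4 at chrX:100625815-100626114 (plus strand), that of Kif1a at chr1:93101825-93102124 (minus strand) and that of Kif5c at chr2:49619036-49619335 (plus strand). Capitals mark CHR and CCAAT words, the second also where it reads ATTGG on the other strand.
Kif14: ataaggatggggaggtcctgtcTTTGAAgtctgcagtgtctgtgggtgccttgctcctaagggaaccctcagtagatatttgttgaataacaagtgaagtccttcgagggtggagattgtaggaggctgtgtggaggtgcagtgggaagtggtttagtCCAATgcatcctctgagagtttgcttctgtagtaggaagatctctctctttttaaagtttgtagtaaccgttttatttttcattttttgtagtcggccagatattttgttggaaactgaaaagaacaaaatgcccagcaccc
Kif18b: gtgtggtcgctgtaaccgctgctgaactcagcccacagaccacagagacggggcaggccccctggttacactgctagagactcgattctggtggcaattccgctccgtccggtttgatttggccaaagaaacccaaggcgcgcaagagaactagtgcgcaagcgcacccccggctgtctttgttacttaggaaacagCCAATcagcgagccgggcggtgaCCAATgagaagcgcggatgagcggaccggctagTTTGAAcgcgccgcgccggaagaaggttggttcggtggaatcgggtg
Kif4: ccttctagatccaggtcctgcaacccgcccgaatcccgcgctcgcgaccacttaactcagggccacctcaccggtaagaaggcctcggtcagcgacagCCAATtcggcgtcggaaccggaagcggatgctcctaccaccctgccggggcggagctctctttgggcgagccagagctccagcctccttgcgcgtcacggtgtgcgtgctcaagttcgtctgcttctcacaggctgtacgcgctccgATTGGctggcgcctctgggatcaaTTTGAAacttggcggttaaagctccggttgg
Kif1a: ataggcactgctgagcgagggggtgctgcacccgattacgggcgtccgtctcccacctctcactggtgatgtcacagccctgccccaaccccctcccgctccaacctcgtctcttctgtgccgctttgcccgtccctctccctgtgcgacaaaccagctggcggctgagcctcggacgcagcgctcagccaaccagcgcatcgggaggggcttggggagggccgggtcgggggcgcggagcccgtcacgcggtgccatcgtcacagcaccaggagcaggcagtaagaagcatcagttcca
Kif5c: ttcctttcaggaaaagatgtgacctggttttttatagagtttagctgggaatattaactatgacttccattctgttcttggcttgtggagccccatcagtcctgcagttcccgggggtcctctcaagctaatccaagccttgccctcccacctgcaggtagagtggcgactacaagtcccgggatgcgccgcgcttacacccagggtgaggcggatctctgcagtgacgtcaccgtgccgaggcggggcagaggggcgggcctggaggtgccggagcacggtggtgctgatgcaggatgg
In these lines the Kif14 window has its CHR word 228 bases and its CCAAT word 92 bases before the start. The Kif18b window has CCAAT words 53 and 30 bases before the start and the first base of its CHR word 4 bases after it. In the Kif4 window the CHR word begins 20 bases after the start, with CCAAT words 152 bases before it and, on the other strand, 5 bases before it. In these 3 windows the CHR and CCAAT words do not overlap. Neither word occurs in the printed windows of Kif1a and Kif5c.

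Over the class, 9 of 10 mitotic kinesin windows (90%) held a CHR word, against 1 of 12 vesicle-transport windows (8.33%), 15 of the 63 windows of all members (23.8%) and 6316 of 32851 windows of all genes (19.2%). The mitotic window without one was that of Kif18a, and Kif20a had no window in the table. The vesicle-transport window with one belonged to another start of Kif1a than the one printed. A CCAAT word separated the classes less. It was found in 6 of 10 mitotic windows (60%), 4 of 12 vesicle-transport windows (33.3%), 44.4% of the windows of all members and 37.4% of all windows. Both words together occurred in 6 of 10 mitotic windows, in 0 of 12 vesicle-transport windows and in 7.52% of all windows. These matches describe letters, not sites of binding.

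**Figure D1:**
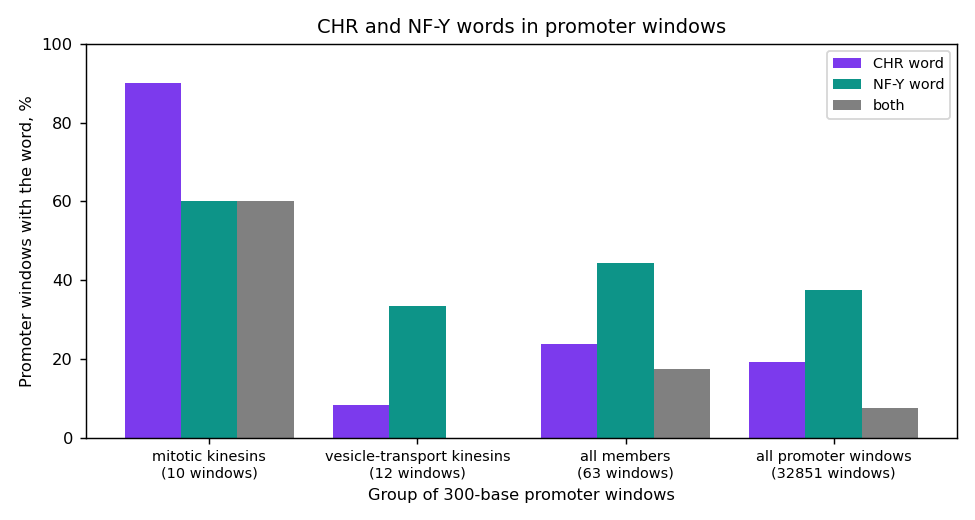
Share of promoter windows (percent, vertical axis) that hold a CHR word, an NF-Y word (CCAAT) or both, for windows of mitotic kinesins, vesicle-transport kinesins, all members and all genes. The CHR bar stands at 90% for the mitotic class and at 8.33% for the vesicle-transport class, beside 19.2% of all windows.

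All 11 kinesins listed as mitotic were lower in the Hdc-CFP-positive library, by 5.44- to 15.5-fold. The lists were drawn up with earlier results of these data known, so their counts are not independent of the data. The 13 vesicle-transport kinesins were divided, with 6 higher, 1 lower and 6 neither. Kif2a, a relative of the listed Kif2c, was placed outside both classes and was 8.39-fold higher, as given below. Over all 16682 measured genes, 21.9% were called higher and 21.9% lower, the shares to set beside the count of each list. The mitotic class had a median log2 fold of -3.43 (range -3.94 to -2.44), the vesicle-transport class one of 0.45 (range -2.08 to 6.66), and all measured genes one of -0.05. The class medians thus differed by -3.88 (mitotic minus vesicle-transport). Summed per kb of exon, mitotic kinesins came to 4.92 CPM in the positive and 47.6 CPM in the depleted library. Vesicle-transport kinesins came to 181 CPM in the positive and 155 CPM in the depleted library, so this sum differed little. It exceeded the mitotic sum 36.8-fold in the positive and 3.24-fold in the depleted library. In bulk samples like these, fewer cells of a type and less RNA per cell cannot be told apart.

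Mitotic kinesins had 13 to 64 counts each in the Hdc-CFP-positive library and 653 to 2174 in the depleted library, so the positive levels carry the wider counting error. Kif11, the motor that pushes spindle poles apart, stood at 3.28 CPM in the positive and 41.6 CPM in the depleted library, 12.7-fold lower [9.27 to 17.8]. Kif15, which can share that work, stood at 1.56 CPM in the positive and 16.5 CPM in the depleted library, 10.5-fold lower [6.71 to 17.6]. Both motors of spindle bipolarity therefore lay far apart between the libraries.

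The motors of chromosome alignment and microtubule length went the same way. Kif18a, which damps chromosome movement at the spindle middle, had 1.40 CPM in the positive and 15.2 CPM in the depleted library, 10.9-fold lower [6.75 to 18.8]. Its relative Kif18b, which shortens astral microtubules, had 1.07 CPM in the positive and 15.8 CPM in the depleted library, 14.8-fold lower [8.58 to 27.9]. Kif2c, a depolymerase that corrects wrong attachments of chromosomes, had 1.72 CPM in the positive and 14.5 CPM in the depleted library, 8.43-fold lower [5.47 to 13.7]. The chromokinesins, which bind chromosome arms, lay well apart within the range of the class: Kif4 had 1.56 CPM in the positive and 22.5 CPM in the depleted library, 14.4-fold lower [9.17 to 24.0]. Kif22 had 5.26 CPM in the positive and 28.6 CPM in the depleted library, 5.44-fold lower [4.23 to 7.11], the smallest difference among the mitotic kinesins.

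Kinesins of cytokinesis included Kif20a, the highest of the class per kb in the depleted library, with 0.965 CPM per kb in the positive and 8.41 CPM per kb in the depleted library. Kif23, a subunit of the centralspindlin complex, had 4.76 CPM in the positive and 48.4 CPM in the depleted library, 10.2-fold lower [7.83 to 13.4]. Kif20a, which brings regulators to the central spindle, had 4.19 CPM in the positive and 36.5 CPM in the depleted library, 8.72-fold lower [6.60 to 11.8]. Kif20a overlaps Cdc23 on the opposite strand over 29.3% of its exon length. The strand setting is not given, so whether reads of that stretch were counted or dropped as ambiguous is not known. Kif20b, also of the late steps of division, had 3.20 CPM in the positive and 34.7 CPM in the depleted library, 10.8-fold lower [7.88 to 15.3]. Kif14, which acts at the midbody, had 1.23 CPM in the positive and 19.1 CPM in the depleted library and was 15.5-fold lower [9.35 to 27.8], the largest difference of the 11.

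**Figure D2:**
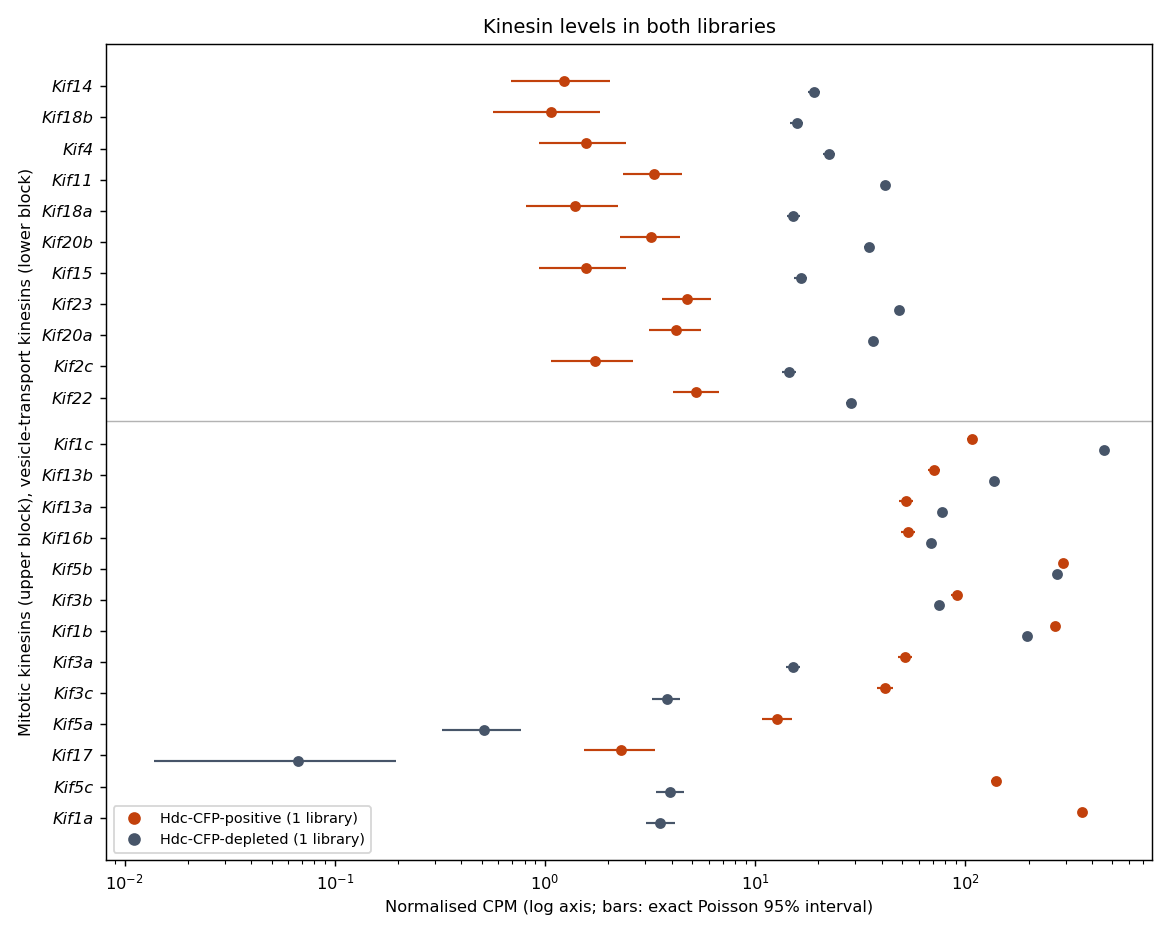
Normalised CPM (horizontal log axis, with exact Poisson 95% intervals) of each mitotic kinesin (upper block) and vesicle-transport kinesin (lower block) in the Hdc-CFP-positive and the Hdc-CFP-depleted library. Mitotic kinesins lie between 1.07 and 5.26 CPM in the positive library and between 14.5 and 48.4 CPM in the depleted library, with no overlap, while vesicle-transport kinesins lie on both sides.

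Genes for proteins that work with these motors were mostly lower too. Of 24 listed spindle partners, 23 were lower and 1 was neither, with a median log2 fold of -3.61. Plk1, a kinase that docks on several mitotic kinesins, had 14.5 CPM in the positive and 108 CPM in the depleted library, 7.44-fold lower [6.40 to 8.70]. Ect2, which centralspindlin activates at the division plane, was 10.2-fold lower [8.04 to 13.2], with 5.58 CPM in the positive and 57.1 CPM in the depleted library. The largest differences of the list were those of Ndc80, a kinetochore protein, with 4 counts in the positive and 457 in the depleted library, 31.0-fold lower [12.02 to 114], and Ckap2, 30.7-fold lower [15.5 to 71.4] on 8 counts in the positive and 906 in the depleted library. Numa1, which also serves the nucleus outside division, was the exception at 409 CPM in the positive and 270.4 CPM in the depleted library, a ratio of 1.51 [1.46 to 1.57]. The list holds Cenpe and Kifc1, kinesin motors whose symbols lie outside the pattern, named here after their values were seen. Cenpe had 28 counts in the positive and 2189 in the depleted library, 21.2-fold lower [14.6 to 32.0], and Kifc1 11 counts in the positive and 366 in the depleted library, 9.02-fold lower [4.98 to 18.2]. The proliferation markers given above moved with both lists, and their part in these differences was not tested.

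Of the vesicle motors, Kif1a, which carries synaptic vesicle precursors and dense-core vesicles in neurons, differed most. It had 4368 counts in the Hdc-CFP-positive and 159 in the depleted library, or 359 CPM in the positive and 3.54 CPM in the depleted library, 101-fold higher [86.5 to 119]. Its relative Kif1b, a motor of mitochondria and vesicle precursors, had 267 CPM in the positive and 196 CPM in the depleted library, a ratio of 1.36 [1.31 to 1.42]. Kif1c, found in many tissues, had 107 CPM in the positive and 455 CPM in the depleted library and was 4.23-fold lower [4.003 to 4.48], the 1 vesicle-transport kinesin called lower. Within this family, Kif1a made up 56.2% of the per-kb level in the positive and 0.513% in the depleted library. Kif1c made up 21.6% in the positive and 84.5% in the depleted library, so the leading member differed. As a share of the family's counts, Kif1a took 48.9% in the positive [47.9 to 49.96] and 0.541% in the depleted library [0.461 to 0.632] (exact Clopper-Pearson intervals).

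Kinesin-1, the conventional kinesin, has 3 heavy-chain genes. Kif5b, the chain present in nearly all cells, stood at 292 CPM in the positive and 274 CPM in the depleted library, a ratio of 1.07 [1.03 to 1.11]. Kif5c, a chain enriched in neurons, stood at 139 CPM in the positive and 3.94 CPM in the depleted library, 35.3-fold higher [30.2 to 41.4]. Kif5a, the other neuronal chain, stood at 12.7 CPM in the positive and 0.512 CPM in the depleted library, 24.9-fold higher [16.0 to 40.4]. Per kb, Kif5b remained the leading chain, with 63.2% of the family level in the positive and 98.2% in the depleted library. Kif5c made up 33.6% in the positive and 1.58% in the depleted library.

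Kinesin-2 motors carry vesicles and build cilia. Kif3a, the subunit common to the heterotrimeric forms, had 51.7 CPM in the positive and 15.1 CPM in the depleted library, 3.42-fold higher [3.06 to 3.82]. Its partner Kif3b had 91.1 CPM in the positive and 74.7 CPM in the depleted library, a ratio of 1.22 [1.14 to 1.30]. Kif3c, an alternative partner enriched in neurons, had 41.6 CPM in the positive and 3.79 CPM in the depleted library, 10.98-fold higher [9.21 to 13.1]. Kif3c overlaps 1110002L01Rik on the opposite strand over 35.3% of its exon length, and whether reads of that stretch were counted is not known either. Kif17, the homodimeric kinesin-2, was low, with 28 counts in the positive and 3 in the depleted library, 34.4-fold higher [10.6 to 177]. The makeup of the trimeric family was 39.9% Kif3a, 44.6% Kif3b and 15.5% Kif3c per kb in the positive library, and 23.4%, 73.7% and 2.84% of the same genes in the depleted library.

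The motors of endosomes and membrane traffic did not reach 2-fold. Kif13a stood at 52.4 CPM in the positive and 77.7 CPM in the depleted library, a ratio of 0.674 [0.619 to 0.734]. Kif13b stood at 70.9 CPM in the positive and 136 CPM in the depleted library, a ratio of 0.520 [0.484 to 0.558], and passed the threshold as lower under 2 other scalings. Kif16b, which binds early endosomes, stood at 53.5 CPM in the positive and 68.9 CPM in the depleted library, a ratio of 0.778 [0.714 to 0.846]. The higher vesicle motors were thus Kif1a, Kif3a, Kif3c, Kif5a, Kif5c and Kif17.

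Light chains and adaptors, which fix the motors to their cargo, were divided too. Of 16 measured, 7 were higher, 2 lower and 7 neither (median log2 fold 0.69), beside 21.9% each way of all measured genes. Mapk8ip2, a scaffold that binds kinesin-1 light chains, differed most, with 1093 counts in the positive and 17 in the depleted library, 237-fold higher [147 to 408]. Mapk8ip3, another scaffold of that family, had 198 CPM in the positive and 70.5 CPM in the depleted library, 2.81-fold higher [2.66 to 2.96]. Madd, which links Kif1a and Kif1b to Rab3 vesicles, had 201 CPM in the positive and 85.1 CPM in the depleted library, 2.36-fold higher [2.25 to 2.49]. Against these, Trak1, the adaptor of mitochondria, had 78.2 CPM in the positive and 182 CPM in the depleted library, 2.32-fold lower [2.17 to 2.49]. The light chain gene Klc4 had 35.7 CPM in the positive and 118 CPM in the depleted library, 3.31-fold lower [3.004 to 3.66].

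The motor that runs the other way showed few differences. Of 24 measured genes of cytoplasmic dynein and its cofactor dynactin, 3 were higher, 2 lower and 19 neither, with a median log2 fold of -0.14. Over all measured genes, 21.9% were called each way. The heavy chain gene Dync1h1 stood at 715 CPM in the positive and 740.3 CPM in the depleted library, a ratio of 0.966 [0.943 to 0.989], and Pafah1b1, a regulator of the motor, at 237 CPM in the positive and 179 CPM in the depleted library, a ratio of 1.33 [1.27 to 1.38]. Of the light chain genes, Dynll2 and Dynll1 went opposite ways, while Dynlrb1 (ratio 0.841) and Dynlt3 (ratio 1.21) were neither. Dynll2 had 459 CPM in the positive and 224 CPM in the depleted library, 2.05-fold higher [1.99 to 2.12]. Dynll1 had 27.3 CPM in the positive and 83.1 CPM in the depleted library, 3.04-fold lower [2.72 to 3.41]. Hook3, an adaptor of dynein, was 3.52-fold higher [3.31 to 3.75], with 160.2 CPM in the positive and 45.5 CPM in the depleted library.

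Other kinesins, outside both classes, comprised 15 listed genes, of which 12 were measured. Of these, 6 were higher, 2 lower and 4 neither, beside 21.9% each way of all measured genes. Kif12, a kinesin known from mouse kidney and pancreatic beta cells, had the highest level per kb of all 74 members in the Hdc-CFP-positive library, at 92.3 CPM per kb, against 2.80 CPM per kb in the depleted library. It had 3824 counts in the positive and 428 in the depleted library and was 32.9-fold higher [29.8 to 36.5]. Kif2a, a depolymerase, had 246 CPM in the positive and 29.3 CPM in the depleted library, 8.39-fold higher [7.86 to 8.96]. Its relative Kif2c, of the mitotic list, went the other way, as given above. Kif2a was placed outside that list, so the results of the mitotic class do not cover it, and no alternative put it in. Kif1bp, which binds kinesins and is not a motor, had 79.9 CPM in the positive and 26.6 CPM in the depleted library, 3-fold higher [2.75 to 3.27].

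The low members of that group were called on few counts. Kif26a, which in mouse restrains growth of enteric neurons, had 17 counts in the positive and 0 in the depleted library, at least 20.9-fold higher with a floor of 3 counts for the depleted library. The exact 95% interval of that fold, which also covers the counting error of the positive library, begins lower, at 15.2. Kif27 had 17 counts in the positive and 2 in the depleted library, 31.3-fold higher [7.44 to 279.7]. Kif9, a kinesin of motile cilia, had 145 counts in the positive and 195 in the depleted library, 2.74-fold higher [2.20 to 3.42]. Of 6 measured ciliated-cell markers 4 were higher, with Dnah11 at 1390 counts in the positive and 43 in the depleted library. Foxj1, the factor that defines motile cilia, had 5 counts in the positive and 35 in the depleted library, and Tekt1 had 0 in both. The summed level of these markers was 142 CPM in the positive and 4.92 CPM in the depleted library, and their part in the Kif9 and Kif27 differences was not tested. Kif24, a depolymerase at centrioles, was 2.12-fold lower [1.58 to 2.91] on 50 counts in the positive and 391 in the depleted library, and Kif26b 3.98-fold lower [1.27 to 20.02] on 3 counts in the positive and 44 in the depleted library. Neither of these calls held with library totals. Kif21a, which pauses microtubule growth, had 47.8 CPM in the positive and 34.7 CPM in the depleted library, a ratio of 1.38 [1.25 to 1.52]. The remaining measured members had ratios of 0.983 for Kif7 [0.390 to 2.20], 0.848 for Kif19a [0.494 to 1.39] and 0.594 for Kif21b [0.490 to 0.714].

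**Figure D3:**
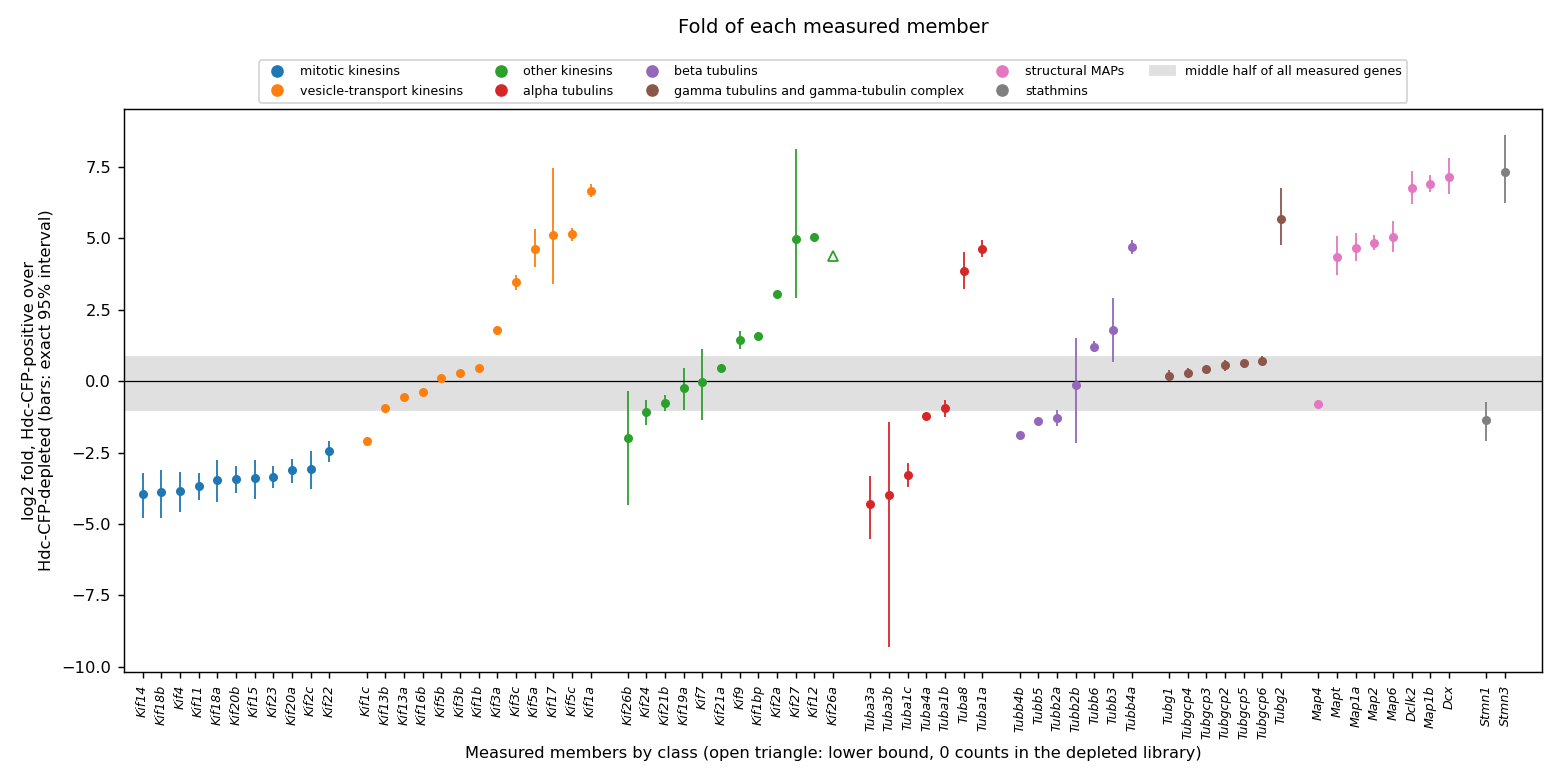
Log2 fold of each measured member (vertical axis, positive over depleted, with exact 95% intervals), grouped by class along the horizontal axis; the grey band spans the middle part of all measured genes between the quartiles, and the open triangle marks the bound of a gene with 0 counts in the depleted library. The 11 mitotic kinesins lie between -3.94 and -2.44, and 7 of 8 structural MAPs lie above 4.

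Structural MAPs were the most uniform of the groups with higher members: 7 of 8 were higher, with a median log2 fold of 4.93, and 0 were lower. Map1b, a MAP of growing axons, had 3092 counts in the Hdc-CFP-positive and 95 in the depleted library, 120.0-fold higher [97.8 to 149]. Dcx, the doublecortin of migrating neurons, had 924 counts in the positive and 24 in the depleted library, 142-fold higher [94.8 to 223]. Its relative Dclk2, a kinase with doublecortin domains, had 792 counts in the positive and 27 in the depleted library, 108-fold higher [73.8 to 165]. These 3 genes lay about as far apart between the libraries as Kif1a did.

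Map2, the MAP of dendrites, had 90.9 CPM in the positive and 3.14 CPM in the depleted library, 29.0-fold higher [24.3 to 34.7]. The other members of the class, Map1a, Map6 (which makes microtubules stable to cold) and Mapt (the axonal protein tau), are given to complete it and were not picked by the naming rule. Map1a was 25.6-fold higher [18.6 to 36.2], Map6 33.1-fold [22.9 to 49.3] and Mapt 20.5-fold [13.1 to 33.5], with positive levels of 24.6, 23.6 and 10.5 CPM and depleted levels of 0.958, 0.713 and 0.512 CPM. Map4, the MAP of most tissues, was the exception, with 65.5 CPM in the positive and 113 CPM in the depleted library, a ratio of 0.580 [0.538 to 0.625]. Per kb, Map4 made up 9.83% of the class level in the positive and 92.0% in the depleted library, while Map1b made up 36.4% in the positive and 1.65% in the depleted library.

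Since these MAPs are also genes of neurons, the neuronal markers are given beside them. Of 12 markers of enteric neurons 5 were measured, and these 5 (Elavl3, Elavl4, Nefm, Ret and Uchl1) were higher, with a summed level of the list of 113 CPM in the positive and 2.09 CPM in the depleted library. Hand2, a factor of enteric neurons, and Prph, Nefl and Vip had 0 counts in both libraries. The glial factor Sox10 had 0 counts in both as well. Stmn2, a neuronal stathmin, had 0 counts in both libraries and Stmn4 had 0 in the positive and 1 in the depleted library.

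Stathmins, which sequester tubulin dimers, were measured for Stmn1 and Stmn3 only. Stmn3, a stathmin of neurons, had 301 counts in the positive and 7 in the depleted library, 159-fold higher [76.0 to 398]. Stmn1, high in proliferating cells, had 21 counts in the positive and 200 in the depleted library and was 2.58-fold lower [1.64 to 4.26]. Per kb, Stmn3 made up 96.0% of the stathmin level in the positive and 5.56% in the depleted library.

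Tubulin genes were divided within each family, with 5 of the measured alpha and beta genes higher, 7 lower and 2 neither. The shares over all measured genes were 21.9% higher and 21.9% lower. Without the genes that share over 10% of their 50-base words with other transcripts, 3 were higher and 1 lower. The differences between isotypes lie mostly in the acidic tail at the protein's end, where enzymes add chains of glutamate. The last 63 coding bases, stop codon included, are shown for Tuba4a, Tubb4a, Tubb4b and Tubb5, which are among the tubulins with the highest levels per kb, and for Tubb3, from the GENCODE M21 transcripts on GRCm38, with in-frame glutamate codons (GAA or GAG) in capitals.
Tuba4a: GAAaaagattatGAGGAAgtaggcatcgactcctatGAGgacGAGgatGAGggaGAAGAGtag
Tubb4a: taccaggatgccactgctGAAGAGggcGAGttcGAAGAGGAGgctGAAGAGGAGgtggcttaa
Tubb4b: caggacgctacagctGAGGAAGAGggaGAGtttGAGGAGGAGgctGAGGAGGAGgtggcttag
Tubb5: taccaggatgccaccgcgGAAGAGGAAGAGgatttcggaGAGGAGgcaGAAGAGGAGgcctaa
Tubb3: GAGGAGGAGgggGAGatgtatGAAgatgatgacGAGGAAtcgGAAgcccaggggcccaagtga
Among the last 20 codons, Tuba4a has 8 glutamate codons, Tubb4a 9, Tubb4b 10, Tubb5 9 and Tubb3 8. Tubb4a, which was higher in the positive library, differs from Tubb4b at 15 and from Tubb5 at 18 of the 63 bases.

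Among alpha tubulins, Tuba1a, the isotype of developing neurons, had 784 counts in the Hdc-CFP-positive and 116 in the depleted library, 24.9-fold higher [20.5 to 30.6]. Tuba1c, expressed broadly, had 49 counts in the positive and 1743 in the depleted library, 9.65-fold lower [7.26 to 13.1]. Tuba1b, also broad, had 8.54 CPM in the positive and 16.5 CPM in the depleted library, a ratio of 0.518 [0.417 to 0.636], and passed as lower under 2 other scalings. These 3 genes share most of their sequence: 75.5% of the 50-base words of Tuba1a, 75.1% of those of Tuba1b and 52.7% of those of Tuba1c occur in transcripts of another gene, so unique reads cover only part of each and their levels are uncertain. Tuba4a, an isotype without an encoded final tyrosine, had 98.3 CPM in the positive and 228 CPM in the depleted library, 2.32-fold lower [2.18 to 2.46] and was not called with library totals. It overlaps Stk16 on the opposite strand over 37.3% of its exon length. Tuba8 was 14.5-fold higher [9.33 to 23.2] on 102 counts in the positive and 26 in the depleted library. The testis isotypes Tuba3a and Tuba3b, identical over the last 63 coding bases, had 8 and 1 counts in the positive and 583 and 58 in the depleted library, 19.8-fold [9.96 to 46.0] and 15.7-fold lower [2.71 to 632]. Per kb, Tuba1a made up 49.1% of the alpha-tubulin level in the positive and 1.46% in the depleted library, and Tuba4a 36.5% in the positive and 62.6% in the depleted library.

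Beta tubulins showed the same kind of split, and for Tubb4a, Tubb5, Tubb3 and Tubb6 at most 0.184% of the 50-base words were shared. Tubb4a, an isotype of brain, had 1164 counts in the positive and 165 in the depleted library, 26.0-fold higher [22.1 to 30.8]. Tubb5, an isotype of most tissues, had 134 CPM in the positive and 351 CPM in the depleted library, 2.63-fold lower [2.49 to 2.76]. Tubb4b, another broad isotype, had 57.6 CPM in the positive and 214 CPM in the depleted library, 3.72-fold lower [3.45 to 4.03], with 41.3% of its words shared with other transcripts. Tubb4a thus made up 33.0% of the beta-tubulin level per kb in the positive and 0.717% in the depleted library, while Tubb4b made up 21.2% in the positive and 44.6% in the depleted library. Tubb6 was 2.31-fold higher [2.03 to 2.64], at 30.5 CPM in the positive and 13.2 CPM in the depleted library. Tubb3, the isotype used as a marker of neurons, was low in both, with 15 counts in the positive and 16 in the depleted library, 3.46-fold higher [1.59 to 7.47]. Tubb2a was 2.45-fold lower [2.02 to 3], at 9.53 CPM in the positive and 23.4 CPM in the depleted library, and was not called with library totals. Tubb2b had 4 counts in the positive and 16 in the depleted library, a ratio of 0.922 [0.224 to 2.86].

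The summed levels of these families differed less than their makeup. Per kb, alpha tubulins summed to 72.8 CPM in the positive and 98.4 CPM in the depleted library, and beta tubulins to 129.98 CPM in the positive and 229.99 CPM in the depleted library. Tubulin folding factors, the chaperonin subunits, prefoldins and cofactors that fold every tubulin isotype, were neither higher nor lower for all 20 genes measured, with a median log2 fold of -0.32. Cct2 had 199 CPM in the positive and 280.0 CPM in the depleted library, a ratio of 0.712 [0.682 to 0.744], and Cct7 231 CPM in the positive and 186 CPM in the depleted library, a ratio of 1.25 [1.19 to 1.30]. Tcp1, another chaperonin subunit, had 150.1 CPM in the positive and 231 CPM in the depleted library, a ratio of 0.651 [0.619 to 0.684]. The list ran between Pfdn6, a prefoldin subunit, at a ratio of 0.564 [0.487 to 0.650], and Arl2, a partner of the tubulin cofactors, at 1.85 [1.67 to 2.06].

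**Figure D4:**
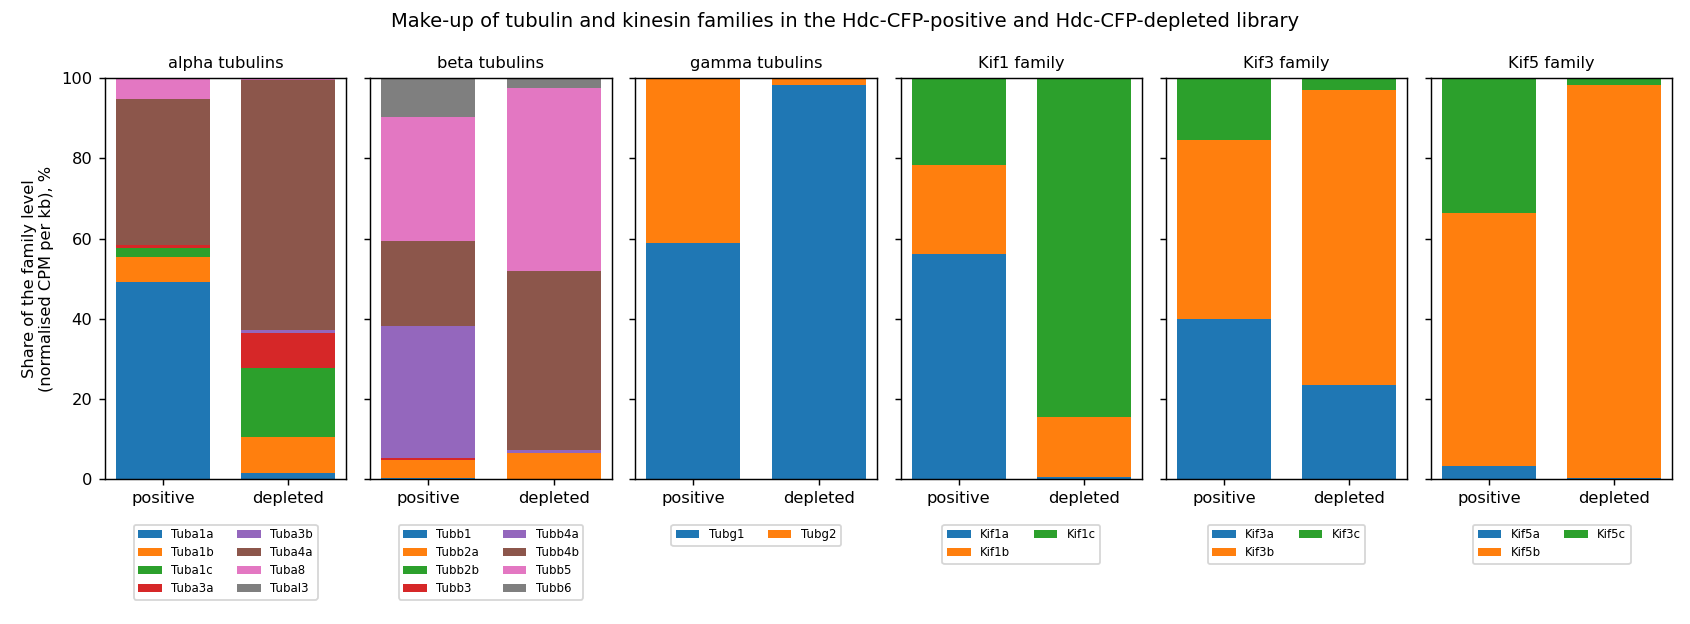
Share of each gene in the summed level of its family (normalised CPM per kb of exon, percent, vertical axis) in the Hdc-CFP-positive library (left bar) and the Hdc-CFP-depleted library (right bar). Tuba1a, Tubb4a, Kif1a and Kif5c take 49.1%, 33.0%, 56.2% and 33.6% of their families in the positive library, and 1.46%, 0.717%, 0.513% and 1.58% in the depleted library.

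Gamma-tubulin and its complex, which start new microtubules, differed in 1 of 7 genes. Tubg2, the gamma-tubulin enriched in brain, had 139 counts in the positive and 10 in the depleted library, 51.3-fold higher [27.1 to 109]. Tubg1, the general gene, had 258 counts in the positive and 835 in the depleted library, a ratio of 1.14 [0.987 to 1.31]. Tubg2 therefore made up 41.0% of the gamma-tubulin level per kb in the positive and 1.52% in the depleted library. The 5 ring-complex genes were neither, with Tubgcp3 at 68.3 CPM in the positive and 51.2 CPM in the depleted library, a ratio of 1.34 [1.23 to 1.45]. The ratio was 1.46 for Tubgcp2 [1.28 to 1.67], 1.22 for Tubgcp4 [1.08 to 1.37], 1.55 for Tubgcp5 [1.39 to 1.72] and 1.65 for Tubgcp6 [1.47 to 1.84], of which Tubgcp6 passed as higher with library totals.

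Enzymes that modify tubulin after assembly included 11 higher, 3 lower and 5 neither of 19 measured, with a median log2 fold of 1.46. All measured genes had 21.9% called each way. Ttll6, a ligase that lengthens glutamate chains on tubulin tails, had 350 counts in the positive and 6 in the depleted library, 215-fold higher [97.8 to 590.2]. Ttll7, a glutamylase of beta-tubulin in mouse neurons, had 157 CPM in the positive and 63.4 CPM in the depleted library, 2.47-fold higher [2.33 to 2.62]. Agtpbp1, which trims these chains, had 95.4 CPM in the positive and 17.8 CPM in the depleted library, 5.35-fold higher [4.88 to 5.86]. Both adding and trimming enzymes were thus among those higher. Ttll12 was 3.04-fold lower [2.76 to 3.35] at 37.6 CPM in the positive and 114 CPM in the depleted library, and Vash1, which removes the final tyrosine, 3.16-fold lower [1.60 to 7.11] on 9 counts in the positive and 105 in the depleted library. The acetylation pair, Atat1 and Hdac6, was named after its values were seen. Atat1, the acetylase of alpha-tubulin, had 41.3 CPM in the positive and 8.71 CPM in the depleted library, 4.74-fold higher [4.15 to 5.43]. Hdac6, which removes that acetyl group, had 63.9 CPM in the positive and 22.5 CPM in the depleted library, 2.84-fold higher [2.58 to 3.12].

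Of 21 genes for proteins at microtubule ends and severing enzymes, 7 were higher, 4 lower and 10 neither. Over all measured genes, 21.9% were higher and 21.9% lower. Clip3 differed most, with 697 counts in the positive and 16 in the depleted library, 161-fold higher [98.2 to 283]. Mapre1, the end-binding protein EB1, had 59.3 CPM in the positive and 136 CPM in the depleted library, 2.29-fold lower [2.12 to 2.48]. Its relative Mapre3, enriched in brain and named after its value was seen, had 96.7 CPM in the positive and 6.64 CPM in the depleted library, 14.6-fold higher [12.8 to 16.6]. Camsap3, which anchors minus ends in epithelial cells, had 37.4 CPM in the positive and 122 CPM in the depleted library, 3.25-fold lower [2.96 to 3.59]. Fignl1 was 7.70-fold lower [4.45 to 14.6] on 13 counts in the positive and 369 in the depleted library, and Clip1 had a ratio of 0.722 [0.678 to 0.769].

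Of 7 measured MAPs outside the symbol pattern, 2 were higher, 2 lower and 3 neither, beside 21.9% each way of all measured genes. Map7d2, a brain relative of the kinesin-1 cofactor Map7, had 80 counts in the positive and 0 in the depleted library, at least 98.3-fold higher with the floor of 3 counts, while its exact 95% interval begins at 78.1. Map7 itself had 98.0 CPM in the positive and 83.0 CPM in the depleted library, a ratio of 1.18 [1.10 to 1.26], and Map1s 35.4 CPM in the positive and 24.5 CPM in the depleted library, a ratio of 1.45 [1.29 to 1.62]. Map9 was 45.7-fold higher [34.6 to 61.5] on 669 counts in the positive and 54 in the depleted library. Dclk1, a relative of Dcx that also marks tuft cells, had 10 counts in the positive and 632 in the depleted library, 17.1-fold lower [9.26 to 35.9]. All 5 measured tuft-cell markers were lower too, with sums of 7.06 CPM in the positive and 236 CPM in the depleted library, and their part in the Dclk1 difference was not tested.

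**Figure D5:**
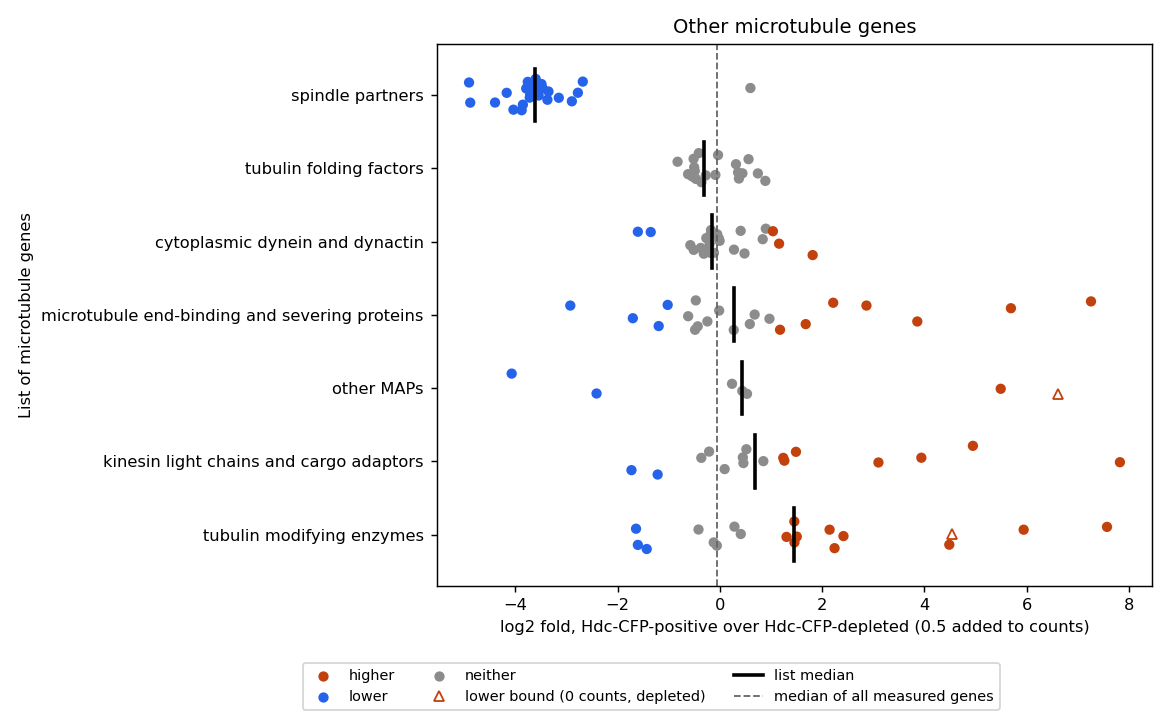
Log2 fold of each measured gene (points, horizontal axis, positive over depleted) in lists of genes that work with the members, coloured by call, with list medians as black bars and the median of all measured genes dashed. Spindle partners centre on -3.61 and tubulin modifying enzymes on 1.46, while the 20 tubulin folding factors lie within 2-fold.

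Of the 74 members, 67 were measured, and of these 26 were higher, 22 lower and 19 neither. Over all measured genes the shares were 21.9% higher and 21.9% lower. The median log2 fold over the measured members was 0.29, and the range ran from -4.27 to 7.16. The 7 members not measured were Tubal3, Tubb1, Kif28, Kif2b, Kif6, Stmn2 and Stmn4. Another 9 were measured through 1 library only, Tuba3a, Tuba3b, Tubb2b, Kif26a, Kif26b, Kif27, Kif7, Stmn3 and Kif17, and 7 of these were called, so such calls are partly set by the count minimum. At a stricter threshold of 4-fold with an interval beyond 2-fold, 21 members were higher and 15 lower, against 13.6% and 11.3% of all measured genes.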

How the data were processed

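RNA was purified on silica columns and made into libraries with a TruSeq RNA kit, per the labels' protocols. The authors aligned reads with TopHat2 2.0.07 to mm9 and counted them with HTSeq, per the submitters' processing notes. The HTSeq version, strand setting and annotation release are not given in the sources used here. Each library's deposited file holds whole-number read counts by Ensembl identifier, with no normalisation. The 5 summary rows that name no gene were left out of library sizes. They held 9.20% unassigned, 1.45% ambiguous and 24.2% non-unique alignments in the positive library, and 4.91%, 1.11% and 34.3% in the depleted library. Reads in these rows, which can include those shared by near-identical or overlapping genes, are missing from the gene counts.

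From these counts, trimmed-mean (TMM) factors were computed with edgeR 4.0.16 in R 4.3.3 over genes with at least 10 counts in either library (1.13 positive, 0.882 depleted). Folds have exact Clopper-Pearson 95% intervals and levels exact Poisson intervals, both for counting error only. The floor for a gene with 0 counts was 3 counts per library (0.246 CPM positive, 0.0668 CPM depleted). GENCODE M21 (GRCm38) gave symbols for 32642 of 37681 identifiers, exon lengths for levels per kb, overlaps and the shares of 50-base words. Intervals and calls were tested on simulated counts with Poisson error only. The simulation held no variation between animals or libraries, so it cannot test the calls beyond counting error. A marker and some sequences that the rule names are not reported here.

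The members and lists were chosen with earlier results of these data known. The text names all measured mitotic and vesicle-transport kinesins. From each other class it names the 5 members highest per kb and the 3 most extreme called each way, and from each related list the 3 most abundant genes and the 2 most extreme. Alternatives were other scalings (library totals, DESeq2 1.42.0 size factors, upper-quartile factors, totals without the 20 most abundant genes), count minimums, folds and members.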

Additional observations from a re-analysis of the deposited data

How the results depend on the processing

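The median log2 fold of the vesicle-transport kinesins, 0.45, followed the scaling: it was 0.81 with library totals and no factor, 0.36 with DESeq2 size factors, 0.66 with totals lacking the 20 most abundant genes and 0.34 with TMM factors from all genes, an alternative chosen after seeing the data. With at least 50 counts it was 0.37. The same scalings shifted the median of all measured genes by 0.36, -0.09, 0.21 and -0.11. A scaling shifts all log2 folds nearly alike, so it could not move the difference of the class medians, -3.88. That difference was -3.80 with at least 50 counts, and -5.20 when Kif5b, Kif1c, Kif20b and Kif22 were left out. With library totals 4741 genes were higher and 2792 lower (62.9% of called genes higher), against 3652 and 3651 with the TMM factors. All 11 mitotic kinesins remained lower under every scaling run, which their differences of at least 5.44-fold made certain. Member calls that changed were those of Tuba4a, Tubb2a, Tubgcp6, Kif24 and Kif26b with library totals, of Kif24 with totals lacking the 20 most abundant genes, and of Tuba1b and Kif13b with DESeq2 factors or TMM factors from all genes. Of 66 member folds, 0 called ones turned direction under the 5 other scalings, and no called one could. Those scalings set the depleted over the positive library size at 3.42 to 4.74, against 3.69, while a call needed 2-fold. No paired analysis was possible because each group holds 1 library, and for the same reason no replicate could be left out. The cause was not tested. Depth limits the positive library, where each mitotic kinesin rests on 13 to 64 counts.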

Other observations

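The 3 identifiers left out of the members had few counts. Kif22-ps had 2 counts in the Hdc-CFP-positive and 48 in the depleted library, Kif16bos had 2 in each, and Kif4-ps had 0 in the positive and 4 in the depleted library.

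Other genes with large folds, named after their values were seen, lay in the related lists. Mapk8ip1, a scaffold of kinesin-1 cargo, had 1825 counts in the Hdc-CFP-positive and 217 in the depleted library, 31.0-fold higher [26.9 to 35.9]. Ppfia3, a liprin of presynaptic sites, had 303 counts in the positive and 72 in the depleted library, 15.5-fold higher [11.97 to 20.4]. Katnal2, a relative of the severing enzyme katanin, had 95 counts in the positive and 6 in the depleted library, 58.4-fold higher [25.9 to 163]. Agbl2, a carboxypeptidase that trims glutamate chains, had 213 counts in the positive and 12 in the depleted library, 65.5-fold higher [36.7 to 129], and Agbl4, of the same family, had 19 counts in the positive and 0 in the depleted library, at least 23.4-fold higher with a floor of 3 counts, while its exact 95% interval begins at 17.2.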
